A study of Mus musculus with 6 samples.

Results

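The genes described here are 10 contractile and focal adhesion genes of the actin cytoskeleton: Acta2, Tagln, Myl9, Cnn1, Cnn2, Tpm1, Tpm2, Actn1, Vcl and Flna. They were chosen by name, for what their proteins do, with earlier results of these data known. They are 10 of the 41388 genes counted. RNA-seq was performed on primary chondrocytes of 21-day-old male mice, 3 homozygous for the Postn tm1Jmol null allele on a B6129SF2/J background (Postn-/-) and 3 wild-type littermates (wt). The cells were released by enzymes from femoral head cartilage, plated and kept for 2 days in medium with fetal bovine serum, and no mouse or culture received a further treatment. The allele is constitutive, so the mice carried it in every tissue and not in chondrocytes alone. The question put to these genes was whether their RNA differed between Postn-/- and wt chondrocytes.

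Contractile cells pull on their surroundings through actin filaments that are joined to myosin along their length and to integrins at focal adhesions, where the cell grips its matrix. Chondrocytes in cartilage are round and hold little of this apparatus, and chondrocytes spread on plastic build stress fibres. Many genes of the apparatus are read out by serum response factor (SRF), which binds the CArG box, a palindromic DNA motif, together with the actin-sensing cofactors MRTF-A and MRTF-B. The MCAT motif, bound by TEAD factors, also stands in the promoters of several muscle-type genes. Periostin is a secreted matrix protein that binds integrins and collagen.

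The libraries held 20587640 to 26572260 counts of reads assigned to genes, so that 3 counts were worth 0.113 to 0.146 CPM (counts scaled to a common library total). Replicate 1 of wt stood apart from the other libraries on the first principal component (47.7 against -17.4 to -0.02), so a value that moves by over 1.5 times without it is given again beside the result. Postn itself was at 4.66, 4.27 and 5.67 CPM in Postn-/- and 10.1, 10.3 and 6.90 CPM in wt (log2 fold change -0.91, SE 0.22). Every Postn-/- sample was below every wt sample, with an adjusted p of 0.717 by the quasi-likelihood test of edgeR with Benjamini-Hochberg adjustment, so the targeted gene had the direction of the labels and Postn reads were still counted in Postn-/-. Cartilage markers were abundant in every sample. The 14 chondrocyte markers summed to 36540 to 49180 CPM in Postn-/- and 30780 to 44180 CPM in wt, and Col2a1, the main cartilage collagen, was at 8271 CPM or more throughout.

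The promoters of 9 of the 10 genes were found in RefSeq (GRCm38.p6, from 250 bases before to 50 bases after the start of transcription), and the promoter of Tagln was not among them. A CArG box, searched by its consensus in both orientations, was found in the windows of Myl9, Cnn2 and Vcl, which is 3 of 9 genes, and in 535 of all 32851 windows in the table (1.63%). MCAT, searched as CATTCC and its reverse complement GGAATG, was found in the windows of Acta2, Tpm1, Vcl and Flna, which is 4 of 9 genes, and in 4817 of all windows (14.7%). The 3 CArG boxes are shown because SRF and its cofactors are among the genes compared further on. The MCAT motifs of Vcl and Flna are shown as examples of the other motif, and those of Acta2 and Tpm1, which lie in annotated exons, are not printed. Each is printed on the gene's own strand with the motif in capitals and 10 bases on either side. A match to these letters describes the sequence and does not show that a factor was bound. Motifs outside the window or with letters off the consensus were not searched, so a gene without a match may still have one.
Myl9 CArG box, chr2:156775293-156775322, plus strand: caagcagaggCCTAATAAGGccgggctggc
Cnn2 CArG box, chr10:79988534-79988563, plus strand: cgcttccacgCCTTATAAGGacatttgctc
Vcl CArG box, chr14:20929161-20929190, plus strand: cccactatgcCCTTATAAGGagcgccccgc
Vcl MCAT, chr14:20929245-20929270, plus strand: ccctcccttgGGAATGggggcggggc
Flna MCAT, chrX:74246665-74246690, minus strand: cgttgtggggCATTCCaacgggaggg
The CArG box of Cnn2 began 56 bases before the start of transcription, that of Myl9 161 bases before it and that of Vcl 227 bases before it. The 10 letters of the Cnn2 and Vcl boxes were identical. The CArG boxes and the Vcl MCAT lie outside any annotated gene in GENCODE M21, and the Flna MCAT lies in an intron of a longer Flna transcript.

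Per length of exon, the members covered a wide range, from a major transcript to one with few reads. In wt, Tpm1, which encodes a tropomyosin that winds along the actin filament, had 98.1 ± 17.0 RPKM (reads per kilobase, scaled to library size; mean ± SD, n = 3). Cnn2, calponin 2, an actin binding protein of non-muscle cells, had 63.1 ± 13.4 RPKM and Acta2, smooth muscle alpha-actin, had 55.3 ± 27.1 RPKM. Tpm2 (37.9 ± 4.90 RPKM), the crosslinker Actn1 (34.5 ± 0.444 RPKM) and the crosslinker Flna (32.5 ± 1.87 RPKM) formed a middle tier. Myl9 (13.4 ± 5.01 RPKM), Tagln (10.5 ± 4.15 RPKM) and Vcl (6.02 ± 0.569 RPKM) were lower, and Cnn1, calponin 1 of smooth muscle, was at 0.712 ± 0.374 RPKM. The order was the same in Postn-/-, where Tpm1 was at 70.8 ± 33.3 RPKM and Cnn1 at 0.625 ± 0.205 RPKM. In wt, Tpm1 stood above Cnn2, Flna above Myl9 and Vcl above Cnn1 by more than their SDs, and the other neighbours in the order had overlapping mean ± SD intervals. The level of Vcl per length may be understated, since 2087 of its 5229 exon bases (39.9%) are overlapped by Ap3m1 on the opposite strand and ambiguous reads were dropped.

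**Figure D1:**
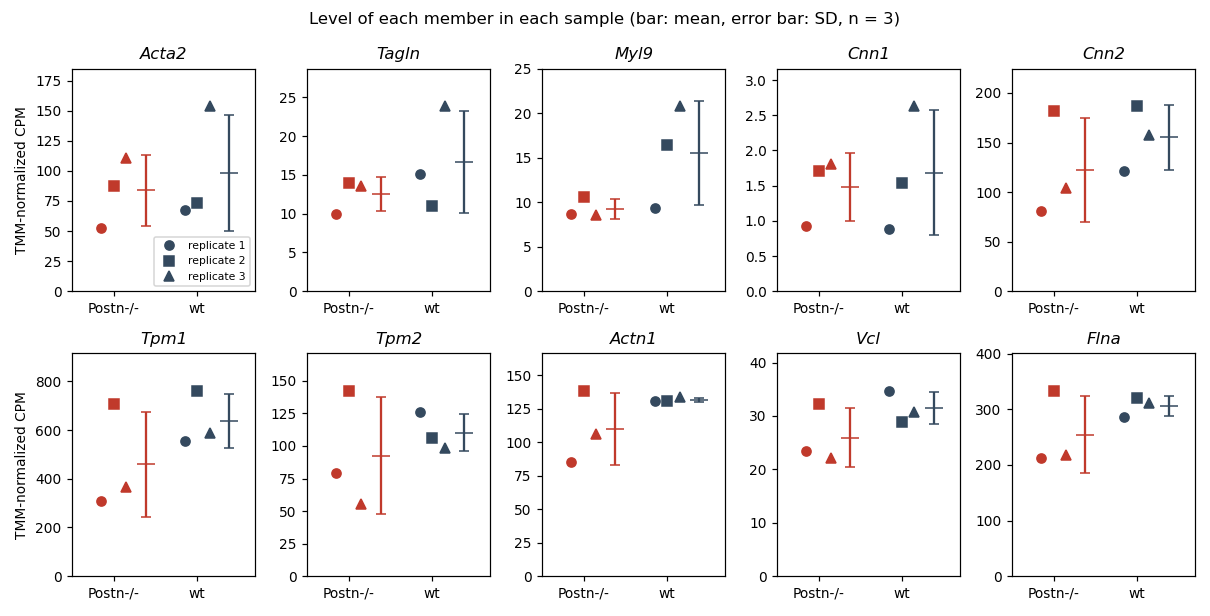
Level of each of the 10 genes in each library, in TMM-normalised CPM on a linear axis from 0 scaled to each gene, with 1 point per library (symbols mark the replicate number), the mean as a dash and the SD as error bars (n = 3). In each of the 10 genes the 3 Postn-/- points overlap the 3 wt points.

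No member passed the test between genotypes, and all 10 had a lower estimate in Postn-/-. The log2 fold changes of Postn-/- over wt ran from -0.74 to -0.18 with a median of -0.27 (-0.15 without Postn-/- replicate 1, -0.51 without Postn-/- replicate 2 and -0.46 without wt replicate 1), while the median over the 14533 genes tested was 0.0042 and 50.8% of those genes were above 0. The adjusted p values of the members were 0.717 to 0.927 by the quasi-likelihood test of edgeR, adjusted by Benjamini-Hochberg over all genes. Across all genes, 0.0138% (2 genes) had an adjusted p of at most 0.05. At an unadjusted p of 0.05, 1 of the 10 members was lower in Postn-/- (Myl9) and none was higher, against 2.35% of all genes lower and 3.95% higher. No member had all Postn-/- samples below all wt samples, which 6.57% of all genes had, and none had them all above, which 7.03% had. The libraries are of bulk RNA, so fewer cells of a kind and less RNA per cell cannot be told apart. The members share libraries and their levels are correlated from sample to sample, as described further on, so their common direction is not 10 separate observations. They were also chosen with earlier results of these data known.

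**Figure D2:**
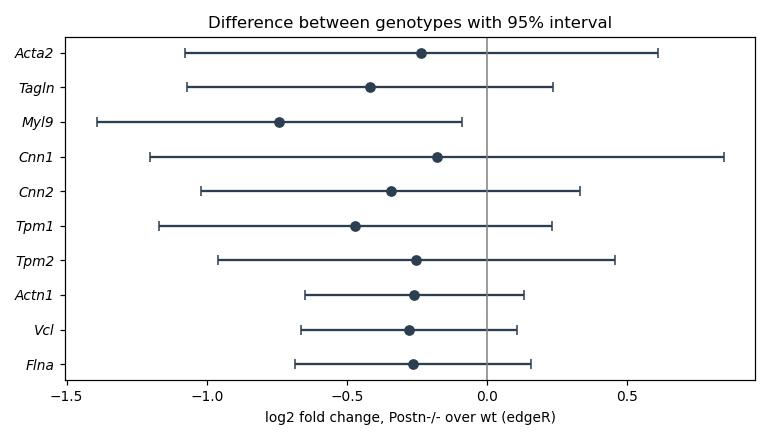
Log2 fold change of Postn-/- over wt for each of the 10 genes, as points with 95% confidence intervals from edgeR's quasi-likelihood fit. All points lie below 0, and the interval of Myl9 (-1.39 to -0.09) is the only one of the 10 that does not reach 0.

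The smooth muscle type genes, those whose products mark contractile smooth muscle and myofibroblasts, were first. Acta2 (chr19:34241090-34255336, minus strand), the actin of smooth muscle stress fibres, was at 52.7, 87.6 and 111 CPM in Postn-/- and 67.6, 73.5 and 154 CPM in wt. The groups overlapped almost wholly, with the lowest sample in Postn-/- and the highest, replicate 3, in wt. Its log2 fold change was -0.23 (SE 0.36, 95% CI -1.08 to 0.61, adjusted p = 0.879 by the quasi-likelihood test of edgeR with Benjamini-Hochberg adjustment). Without Postn-/- replicate 1 it became 0.01, and without wt replicate 3 it became 0.24, so its direction rested on single libraries. It was -0.49 without Postn-/- replicate 3, -0.44 without wt replicate 1 and -0.41 without wt replicate 2.

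Tagln (chr9:45929628-45936058, minus strand) encodes transgelin, an actin binding protein of smooth muscle. It had 10.01, 13.95 and 13.53 CPM in Postn-/- and 15.15, 11.04 and 23.91 CPM in wt. Replicate 3 of wt was again the highest of the 6, and wt replicate 2 lay within the Postn-/- range. The log2 fold change was -0.42 (SE 0.28, 95% CI -1.07 to 0.24, adjusted p = 0.734 by edgeR). Without wt replicate 2 it was -0.64, and without wt replicate 3 it was -0.07.

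Cnn1 (chr9:22099281-22109630, plus strand) had 0.924, 1.71 and 1.81 CPM in Postn-/- and 0.884, 1.54 and 2.64 CPM in wt. These are 23, 42 and 38 counts in Postn-/- and 23, 34 and 55 counts in wt, so this gene has the least depth of the 10. The lowest and the highest sample were both wt. Its log2 fold change was -0.18 (SE 0.44, 95% CI -1.20 to 0.84, adjusted p = 0.927 by edgeR), and it became 0.07 without Postn-/- replicate 1 and 0.29 without wt replicate 3. It was -0.50 without wt replicate 1, -0.34 without Postn-/- replicate 3 and -0.30 without Postn-/- replicate 2.

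Myl9 (chr2:156775420-156781658, plus strand) encodes a regulatory light chain of smooth muscle and non-muscle myosin II, whose phosphorylation switches contraction on. It was at 8.64, 10.6 and 8.58 CPM in Postn-/- and 9.30, 16.4 and 20.8 CPM in wt. The Postn-/- samples lay close together and wt replicates 2 and 3 lay above all of them, while wt replicate 1 fell among them. The log2 fold change was -0.74 (SE 0.28, 95% CI -1.39 to -0.09), the largest in size of the 10. Its p was 0.0304 before adjustment and 0.717 after it (edgeR), so Myl9 is not called. Without wt replicate 1, the library that stood apart, its log2 fold change was -1.01 (adjusted p = 0.704 by edgeR), and without wt replicate 3 it was -0.47. It was negative in all 15 alternatives and reached an unadjusted p of 0.05 in 11 of them. The alternatives reuse the same libraries and are not separate support. Myl9 did not reach that p without Postn-/- replicate 1, Postn-/- replicate 3, wt replicate 2 or wt replicate 3.

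Markers of smooth muscle cells and pericytes were set beside these values. The 12 genes of that list summed to 596 to 644.6 CPM in Postn-/- and 562.7 to 713.5 CPM in wt, most of it from Cspg4 and Pdgfrb, which other mesenchymal cells also express. None was at 0 in all samples. Of the 11 tested, which include Cnn1, 8 were higher and 3 lower in Postn-/- by their estimates. The pericyte genes Rgs5 (log2 fold change 1.24) and Abcc9 (0.87) were higher at an unadjusted p of 0.05, against 3.95% of all genes. Both are low. Rgs5 was at 3.86, 1.22 and 3.15 CPM in Postn-/- and 0.961, 0.769 and 1.77 CPM in wt, with overlap. Abcc9 was at 1.33, 1.26 and 1.38 CPM in Postn-/- and 0.500, 0.679 and 1.01 CPM in wt. The abundant Cspg4 and Pdgfrb had log2 fold changes of 0.0002 and -0.14. Myh11, the myosin heavy chain that defines smooth muscle, was at 1.77, 2.60 and 2.91 CPM in Postn-/- and 1.38, 1.85 and 1.87 CPM in wt. It was not highest in wt replicate 3, where Acta2, Tagln, Myl9 and Cnn1 all had their highest value. That replicate was the highest of the 6 for 4 of the 10 members and for 10.4% of all genes tested, a pattern picked out after the values were seen.

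Cnn2 and the tropomyosins are found in most spreading cells. Cnn2 (chr10:79988584-79996062, plus strand) was at 81.3, 181 and 104 CPM in Postn-/- and 121, 187 and 157 CPM in wt. Replicates 1 and 3 of Postn-/- were below every wt sample and replicate 2 was near the top. The estimate for Postn-/- over wt was -0.34 (SE 0.29, 95% CI -1.02 to 0.33, adjusted p = 0.777 by edgeR).

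Tpm1 (chr9:67022590-67049406, minus strand) had the same layout, at 307, 706 and 365 CPM in Postn-/- and 556, 762 and 590 CPM in wt. Replicate 2 of Postn-/- was far above the other Postn-/- samples. Its log2 fold change was -0.47 (SE 0.30, 95% CI -1.17 to 0.23, adjusted p = 0.730 by edgeR). Tropomyosin isoforms set which myosins and crosslinkers reach the filament, and these counts are per gene and do not separate the isoforms.

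Tpm2 (chr4:43514711-43523765, minus strand), the beta-tropomyosin gene, was at 79.4, 143 and 55.7 CPM in Postn-/- and 126, 106 and 98.3 CPM in wt. The highest and the lowest sample were both Postn-/-, with the wt samples between them. Postn-/- over wt gave a log2 fold change of -0.25 (SE 0.31, 95% CI -0.96 to 0.46, adjusted p = 0.838 by edgeR). It became 0.0079 without Postn-/- replicate 3, -0.15 without Postn-/- replicate 1 and -0.14 without wt replicate 1.

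The remaining members act where actin filaments are bundled or anchored. Actn1 (chr12:80167542-80260371, minus strand), alpha-actinin 1, bundles filaments and ties them to integrins. It was at 84.9, 139 and 106 CPM in Postn-/- and 131, 130.4 and 133 CPM in wt. The wt samples were almost level (131 ± 1.69 CPM) and the Postn-/- samples scattered around a lower mean (109.9 ± 27.02 CPM), with replicate 2 above all wt samples. On the log2 scale the difference was -0.26 (SE 0.17, 95% CI -0.65 to 0.13, adjusted p = 0.730 by edgeR).

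Vcl (chr14:20929433-21033673, plus strand) encodes vinculin, which strengthens the link of stretched talin to actin. It was at 23.4, 32.3 and 22.2 CPM in Postn-/- and 34.8, 29.0 and 30.7 CPM in wt. Replicates 1 and 3 of Postn-/- were below every wt sample, and replicate 2 was second of the 6. The log2 fold change was -0.28 (SE 0.17, 95% CI -0.66 to 0.11, adjusted p = 0.723 by edgeR).

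Flna (chrX:74223461-74249820, minus strand) encodes filamin A, which crosslinks actin into networks and binds integrin tails. Its level was 212, 334 and 218 CPM in Postn-/- and 286, 319 and 312 CPM in wt. The wt samples were again close together, and Postn-/- replicate 2 was above all of them. Postn-/- over wt gave a log2 fold change of -0.26 (SE 0.18, 95% CI -0.69 to 0.16, adjusted p = 0.738 by edgeR). Actn1, Vcl and Flna varied least of the 10, by 1.57 to 1.63 times between the lowest and the highest sample, against 2.30 to 2.98 times for the other members.

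In 7 members (Myl9, Cnn2, Tpm1, Tpm2, Actn1, Vcl and Flna), Postn-/- replicates 1 and 3 were below every wt sample and Postn-/- replicate 2 was not. Of all genes tested, 6.84% had that layout, which was picked out after the values were seen. Without Postn-/- replicate 2, these 7 members reached an unadjusted p of 0.05, with a smallest adjusted p of 0.611 (edgeR), in a fit where 3.81% of all genes reached it as lower and 3.92% as higher. Leaving that library out separates the groups in all 7 by construction, so this count restates the layout and adds no support to it. In that fit the log2 fold change was -0.92 for Tpm1, -0.74 for Cnn2, -0.71 for Tpm2 and -0.51 for Flna. It was -0.47 for Vcl, -0.46 for Actn1 and -0.85 for Myl9. Other libraries moved these values the other way. Without Postn-/- replicate 1 the log2 fold change was -0.25 for Tpm1, -0.12 for Cnn2, -0.15 for Flna and -0.10 for Actn1. Without Postn-/- replicate 3 it was -0.18 for Vcl and -0.17 for Flna, and without wt replicate 2 it was -0.19 for Cnn2. Without any one of Postn-/- replicate 1, Postn-/- replicate 3 or wt replicate 3, no member reached an unadjusted p of 0.05. Without wt replicate 2, Tagln did and Myl9 no longer did. Without wt replicate 1, 1 member did (Myl9) and all 10 log2 fold changes stayed below 0 (median -0.46). With the voom model, sample weights and 2 surrogate variables, the kind of fit the study's methods describe, 6 members reached an unadjusted p of 0.05, all lower, against 6.31% of all genes lower. These were Myl9, Flna, Cnn2, Vcl, Tpm1 and Actn1, and the smallest adjusted p was 0.194, for Tpm1.

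Markers of other cell kinds were looked at in the same libraries. Postn-/- replicate 2 had the lowest summed chondrocyte markers of its genotype (36540 CPM against 49180 and 47660) and the highest summed fibroblast and perichondrium markers (5224 CPM against 4612 and 2554). In wt, the 10 fibroblast and perichondrium markers summed to 3473, 6106 and 3412 CPM, and the chondrocyte markers to 30780, 44180 and 38180 CPM. Replicate 2 of wt was thus the highest of its genotype in both sums, unlike replicate 2 of Postn-/-. Col1a1, the main fibroblast collagen, was at 845.5, 1430 and 481.5 CPM in Postn-/- and 566.2, 2059 and 549.3 CPM in wt. The markers of this list did not all follow it. Dcn was at 2103, 1565 and 980.7 CPM in Postn-/- and 1396, 1118 and 1371 CPM in wt. Within Postn-/-, Col1a2, Lum, Pdgfra and S100a4 were also highest in replicate 2. Dcn, Col3a1 and Dpt were highest in replicate 1, and Thy1 and Pi16 in replicate 3. None of the 9 tested genes of that list reached an unadjusted p of 0.05, and none of the 10 was at 0 in all samples. In the chondrocyte list, 10 of 14 genes were higher and 4 lower in Postn-/- by their estimates. The lower ones were Cnmd (log2 fold change -0.29), Matn1 (-0.27), Col11a1 (-0.14) and Hapln1 (-0.03). At an unadjusted p of 0.05, 3 of the 14 were higher, against 3.95% of all genes, namely Col2a1 (log2 fold change 0.68), Col9a3 (1.00) and Col11a2 (0.52). The 6 endothelial markers summed to 6.11 to 9.48 CPM in Postn-/- and 4.42 to 8.10 CPM in wt. The 8 blood and osteoclast markers, mostly Ctsk, summed to 366.5 to 477.7 CPM in Postn-/- and 322.9 to 437.7 CPM in wt, and no tested gene of either list reached an unadjusted p of 0.05. The part of these marker levels in the members' values was not tested.

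**Figure D3:**
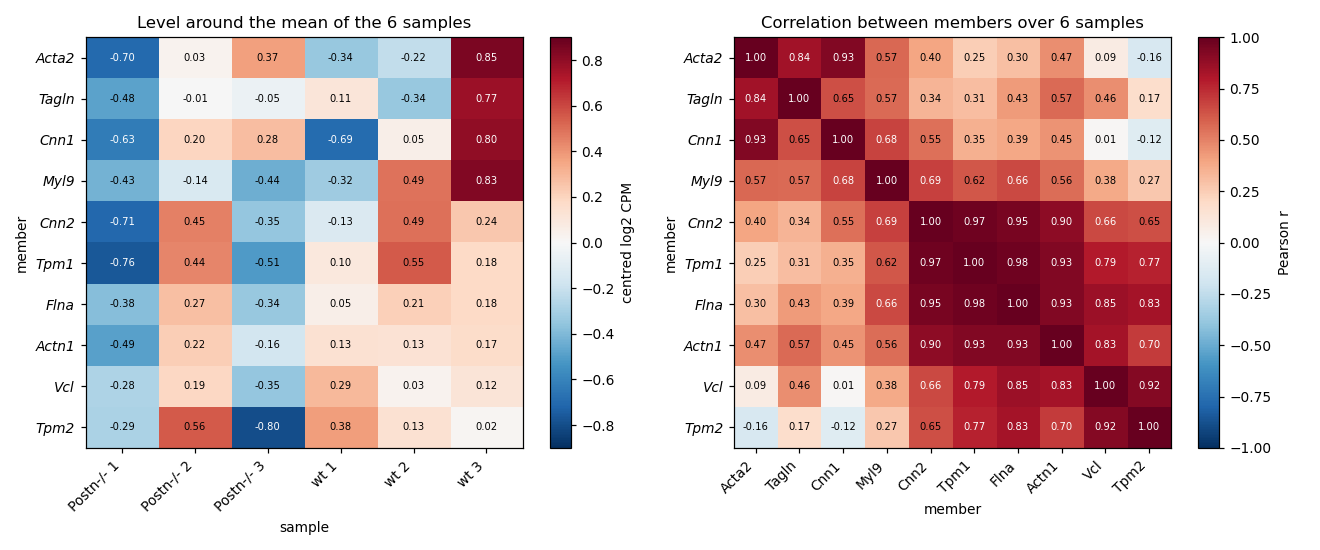
The left map shows log2 CPM of each member in each library, centred on the gene's mean over the 6 libraries, and the right map the Pearson correlation between members over the same libraries, both with red above and blue below 0. All 10 genes are below their mean in Postn-/- replicate 1, and the right map shows higher correlations within Cnn2, Tpm1, Flna and Actn1 and within Acta2, Tagln and Cnn1 than between them.

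The member mean, centred on its average over the 6 libraries, was -0.514, 0.221 and -0.235 on the log2 scale in Postn-/- and -0.041, 0.154 and 0.415 in wt. It was lowest in Postn-/- replicate 1 and highest in wt replicate 3. Over the 6 libraries, 43 of the 45 pairs of members had a Pearson correlation of centred log2 CPM above 0, with a median of 0.571. These are 6 points that share library, depth and genotype, and are given as a description. The range was from -0.163 (Acta2 and Tpm2) to 0.976 (Tpm1 and Flna). Cnn2, Tpm1, Actn1 and Flna correlated with each other at 0.898 to 0.976 (6 pairs). Acta2, Tagln and Cnn1 did so at 0.647 to 0.925 (3 pairs), and the 12 pairs between these sets, which were picked out after the values were seen, were at 0.246 to 0.566. The best partner of Acta2 was Cnn1 (0.925), that of Tagln was Acta2 (0.838), that of Myl9 was Cnn2 (0.687) and that of Tpm2 was Vcl (0.920). The best partner of Cnn2 was Tpm1 (0.969) and that of Actn1 was Flna (0.928). The 3 genes with a CArG box in the window (Myl9, Cnn2 and Vcl) did not form a set of their own among these partners. Tagln had no window to search, and the other members may have CArG boxes that the search could not find.

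The members were next set against their closest relatives, as the share of each family's counts per kilobase. Of the alpha-actinin RNA of non-muscle type, Actn1 made up 18.4%, 25.4% and 23.1% in Postn-/- and 29.3%, 28.3% and 30.3% in wt, the rest being Actn4. Every Postn-/- sample was below every wt sample, at 22.3 ± 3.57% against 29.3 ± 0.983% (SD, n = 3 each). The exact two-sided permutation test gave p = 0.1, the smallest that 3 samples against 3 can give, and 0.6 after Benjamini-Hochberg adjustment over the 9 member shares compared. Actn1 was the only one of those 9 shares whose groups did not overlap. No exon of Actn1 overlaps another gene in the files, while 338 of the 5026 exon bases of Actn4 (6.73%) are overlapped by Capn12.

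Among tropomyosins, Tpm1 made up 26.2%, 35.8% and 30.6% in Postn-/- and 33.8%, 43.0% and 36.6% in wt. These groups overlapped in 1 sample, replicate 2 of Postn-/-. Tpm4 had the largest mean share in both genotypes, at 46.4 ± 3.91% in Postn-/- and 39.8 ± 2.57% in wt, and every Postn-/- sample was above every wt sample. The level of Tpm4 itself was 224 ± 49.8 CPM in Postn-/- and 226 ± 3.72 CPM in wt (log2 fold change -0.01, SE 0.16). Cnn2 made up 25.7 ± 5.40% of calponin RNA in Postn-/- and 34.3 ± 3.67% in wt, also with overlap, and nearly all of the rest was Cnn3. Cnn1 was never above 0.583%. Part of the reads of Tpm4, Cnn3 and the Myl12 genes cannot be placed with certainty, since 15.7% of the 50-base words of Tpm4 and 24.0% of those of Cnn3 also occur in other genes, so these shares carry an error that the replicates do not show.

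The shares of the other members overlapped between the genotypes, and several were minor. Flna was 53.2%, 61.7% and 55.1% of filamin RNA in Postn-/- and 59.9%, 59.2% and 59.8% in wt, with Postn-/- replicate 2 above and the other Postn-/- samples below wt. Myl9 was 4.82 ± 0.289% of the regulatory light chain RNA in Postn-/- and 7.52 ± 3.33% in wt, where its samples ran from 3.89% to 10.4%, and Myl12a was the main gene. Tagln was between 3.62% and 7.42% of transgelin RNA, most of which was Tagln2, and 65 of the 1586 exon bases of Tagln (4.10%) are overlapped by Pcsk7. Acta2 was between 1.09% and 2.83% of actin RNA, of which Actb made up 96.9% to 98.8%. For Actg1, 37.4% of whose 50-base words also occur in other genes, 1.72 to 2.64 CPM were counted, and the cause of this low count was not tested. Should Actg1 be undercounted, the shares of Acta2 and Actb given here would be too high. For the 8 member shares other than that of Actn1 the exact permutation p was 0.2 or more.

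**Figure D4:**
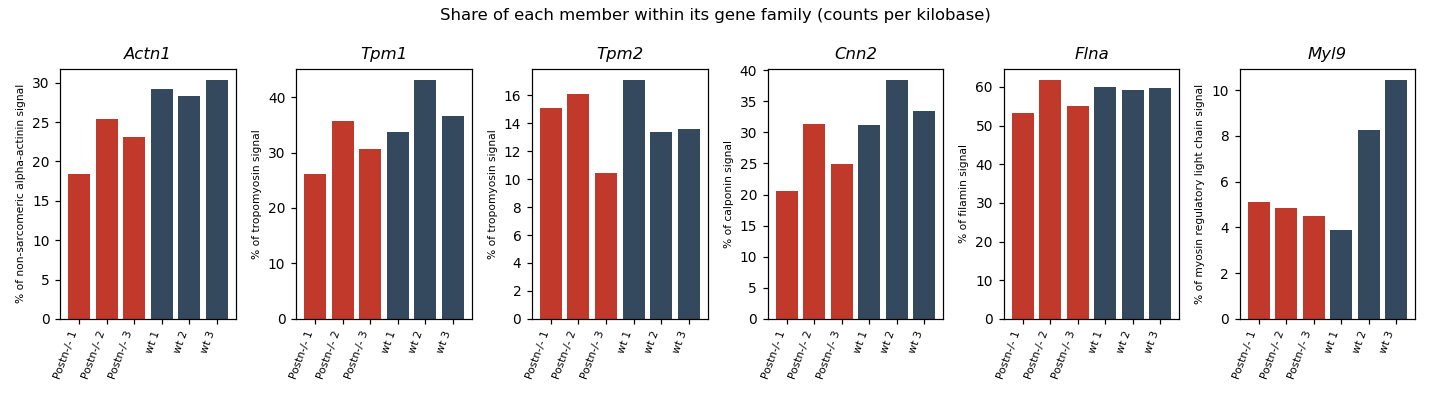
Share of 6 members (Actn1, Tpm1, Tpm2, Cnn2, Flna and Myl9) in the counts per kilobase of their gene families, in percent, with 1 bar per library, Postn-/- in red and wt in dark blue. Actn1 shows no overlap between Postn-/- (18.4% to 25.4%) and wt (28.3% to 30.3%), and the other 5 members overlap.

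Other genes of the apparatus were taken from 4 lists, and none of their genes had an adjusted p of at most 0.05. Beside the counts at an unadjusted p of 0.05 that follow, 3.95% of all genes were higher and 2.35% lower with all libraries (edgeR). Of the actin and tropomyosin relatives, 8 of 10 were tested, with 6 lower and 2 higher in Postn-/- and a median log2 fold change of -0.16. Acta1, skeletal muscle alpha-actin, was at 2.77, 4.51 and 4.43 CPM in Postn-/- and 4.96, 15.9 and 8.15 CPM in wt (log2 fold change -1.30, SE 0.42). Actg2, the enteric smooth muscle actin, was at 3.13, 2.77 and 2.81 CPM in Postn-/- and 1.15, 2.17 and 2.16 CPM in wt (0.68, SE 0.29). Without wt replicate 2 the log2 fold change of Acta1 was -0.74, and without wt replicate 1 that of Actg2 was 0.42. Both reached an unadjusted p of 0.05 (adjusted p = 0.717 each by edgeR), both are low, and their groups did not overlap, with Acta1 lower and Actg2 higher in Postn-/-. Over the 15 alternatives, 1 to 4 genes of this list reached an unadjusted p of 0.05. It was 1 without Postn-/- replicate 1, Postn-/- replicate 3, wt replicate 1 or wt replicate 2, or with the replicate number as a block, and 4 with no filter on low counts or with surrogate variables. Of all genes, 3.03% were higher and 2.21% lower at that threshold with no filter. These shares were smallest without Postn-/- replicate 3 (2.13% and 0.849%) and largest with surrogate variables (7.43% and 6.31%). The 8 skeletal muscle markers, a list that also holds Acta1, summed to 19.7 to 20.3 CPM in Postn-/- and 21.7 to 32.6 CPM in wt, and Myog, which defines differentiating muscle, was at 0 in 5 of 6 samples.

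Of the myosin motor and its regulators, 15 of 16 were tested, 9 lower and 6 higher, with a median of -0.04. Cald1, caldesmon, which holds myosin off actin, was at 195, 253.6 and 202 CPM in Postn-/- and 261, 254.0 and 349.6 CPM in wt (log2 fold change -0.41, SE 0.16, and -0.25 without wt replicate 3). Ppp1cb, the catalytic subunit of myosin phosphatase, was at 213, 238 and 223 CPM in Postn-/- and 288, 243 and 275 CPM in wt (-0.26, SE 0.11). Neither overlapped, although replicates 2 of the genotypes were almost level in both. Both reached an unadjusted p of 0.05, with an adjusted p of 0.717 each (edgeR), and over the 15 alternatives 0 to 4 genes of this list did. The count was 0 with upper-quartile scaling, with the replicate number as a block or without wt replicate 3. It was 1 without Postn-/- replicate 1, Postn-/- replicate 3 or wt replicate 1, or with CPM above 1 in all samples, and 4 without Postn-/- replicate 2 or with surrogate variables. Of all genes, 3.92% were higher and 3.81% lower at that threshold without Postn-/- replicate 2, and 7.43% and 6.31% with surrogate variables.

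Of the focal adhesion plaque genes other than the members, 29 of 30 were tested, 14 lower and 15 higher, with a median of 0.02. Zyx, zyxin, a protein of tensed focal adhesions and stress fibres, was at 167, 171 and 248 CPM in Postn-/- and 82.0, 127 and 158 CPM in wt (log2 fold change 0.67, SE 0.25). Actn4 was at 498, 539 and 467 CPM in Postn-/- and 417, 436 and 406 CPM in wt (0.26, SE 0.11). Both reached an unadjusted p of 0.05 (adjusted p = 0.717 each by edgeR), and in both every Postn-/- sample was above every wt sample, opposite in direction to the estimates for Actn1, Vcl and Flna. Over the 15 alternatives, 0 to 8 genes of this list reached an unadjusted p of 0.05, with 0 without wt replicate 1, 4 without Postn-/- replicate 2, 4 with voom without surrogate variables and 8 with them. It was 1 with DESeq2 size factors, with no filter on low counts or without Postn-/- replicate 1, Postn-/- replicate 3 or wt replicate 3. Of all genes, 3.49% were higher and 1.96% lower at that threshold without wt replicate 1, and 3.92% and 3.81% without Postn-/- replicate 2. These shares were 5.42% and 3.78% with voom without surrogate variables, and 7.43% and 6.31% with them. Tln1, talin, the partner of vinculin, was at 103, 143 and 104 CPM in Postn-/- and 114, 127 and 111 CPM in wt, a log2 fold change of -0.01 (SE 0.15).

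All 6 SRF and MRTF factors were tested, 4 higher and 2 lower, with a median of 0.09. Srf itself was low, at 3.98, 5.94 and 2.67 CPM in Postn-/- and 4.73, 6.70 and 4.41 CPM in wt (log2 fold change -0.33, SE 0.32), and replicate 2 was highest in each genotype. Mrtfb was at 34.9, 36.7 and 36.7 CPM in Postn-/- and 39.6, 41.3 and 42.8 CPM in wt (-0.19, SE 0.10). Its groups did not overlap and its adjusted p was 0.717 (edgeR), while Mrtfa had a log2 fold change of 0.21 (SE 0.15), which was 0.08 without Postn-/- replicate 2. Fhl2, a LIM cofactor, was at 12.7, 43.2 and 21.4 CPM in Postn-/- and 17.8, 28.3 and 29.3 CPM in wt, again with its highest value in Postn-/- replicate 2. Every member was lower in Postn-/- by its estimate, while the focal adhesion and SRF lists were split, and no test of that difference was made.

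**Figure D5:**
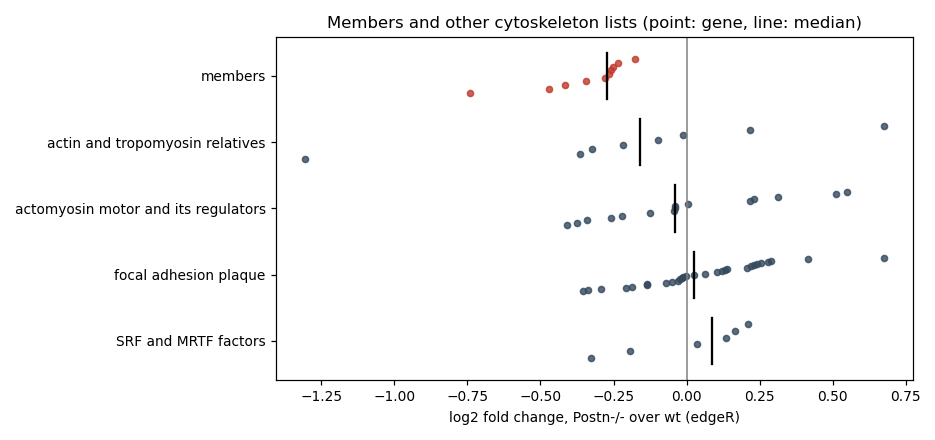
Log2 fold change of Postn-/- over wt for the 10 members and the tested genes of the 4 other lists, 1 point per gene, with the median of each list as a line. All 10 members lie below 0 with a median (line) of -0.27, and the medians of the other lists run from -0.16 to 0.09.

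Among the 8400 tested genes averaging at least 10 CPM, the 5 whose centred log2 CPM correlated best with the mean of the members over the 6 libraries were Gm9825 (r = 0.986), Sept11 (0.970), Pdlim1 (0.967), Fmn1 (0.966) and Med11 (0.964). Sept11, a septin of the cortical cytoskeleton, was at 175, 310.0 and 227 CPM in Postn-/- and 270, 304 and 319 CPM in wt. Pdlim1, a PDZ and LIM protein that binds alpha-actinin, was at 7.51, 11.7 and 8.63 CPM in Postn-/- and 10.5, 12.3 and 12.4 CPM in wt. Fmn1 encodes a formin, which assembles actin filaments, and Med11 a subunit of Mediator. Gm9825 is annotated as a processed pseudogene, so its reads may belong to its parent gene. In each of the 5 the genotypes overlapped, with log2 fold changes of -0.47 to -0.17. They are the highest of 8400 correlations over 6 points, so values this high can come from the search alone. Pdlim1 is also in the focal adhesion list. Whether these genes share regulation with the members was not tested.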

How the data were processed

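Bulk RNA of cultured chondrocytes from 3 Postn-/- and 3 wt mice was amplified with a low-input kit and sequenced as single-end 50-base reads. The authors aligned reads with STAR 2.0.4b to Ensembl release 76 and counted uniquely aligned, unambiguous reads with featureCounts 1.4.5, and the deposited counts are raw counts per gene. Whether counting used strand is not given in the sources used here. The submitters' notes name mm9, but the file coordinates are those of GRCm38. The authors also deposited CPM (counts scaled to the library total) and RPKM (CPM per kilobase of exon), and RPKM was used only to compare levels between genes. Symbols came from GENCODE M21 (97.5% of identifiers matched).

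The test covered 14533 genes, those above 1 CPM in 2 samples or more, after 355 rRNA genes had been removed. The quasi-likelihood test of edgeR 4.0.16 (R 4.3.3; TMM normalisation) compared the genotypes without covariates, with Benjamini-Hochberg adjustment over all genes. The script was tested on simulated counts. Alternatives used DESeq2 1.42.0, limma 3.58.1 and sva 3.50.0. Chi-square per degree of freedom between libraries was 27.0 to 83.2, so none repeats another. CPM in the text is TMM-normalised, SE is of the log2 fold change, and correlations use log2 CPM with a prior count of 2.

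All 10 members are named. From each list of other cytoskeleton genes those at an unadjusted p of at most 0.05 are named, or the 2 with the smallest p where there was none, together with the 5 genes most like the member mean. 1 further such list is not reported here. Tln1, Srf and Fhl2 were added after their values were seen. The members and lists were chosen with earlier results of these data known.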

Additional observations from a re-analysis of the deposited data

How the results depend on the processing

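With 3 mice per genotype and a common biological coefficient of variation of 0.208, the 95% intervals of the members were 0.772 to 2.05 log2 units wide, which limits the precision of each estimate. Over 15 alternatives, 279 of 284 values of the members, Postn and the 8 other genes named by list kept their direction, 5 reversed and none had an adjusted p of at most 0.05. The reversals came without single libraries: the log2 fold change without a replicate ran from -0.49 to 0.24 for Acta2 (0.01 and 0.24 without Postn-/- replicate 1 and wt replicate 3), from -0.50 to 0.29 for Cnn1 (0.07 and 0.29 without the same libraries) and from -0.71 to 0.0079 for Tpm2 (without Postn-/- replicate 3). Leaving out a replicate gave 0 to 7 members at an unadjusted p of at most 0.05 and 0 to 2 members higher in Postn-/-, and 425 to 1257 genes at an unadjusted p of at most 0.05 (916 with all libraries) and 1 to 2 genes at an adjusted p of at most 0.05 (2 with all libraries). With a replicate left out, 2.13% to 5.26% of all genes were higher and 0.849% to 3.81% lower at that unadjusted p. With no filter on low counts 34295 genes were tested, against 14533 in the main fit. Of these, 2 members and 1797 genes reached an unadjusted p of 0.05 (3.03% higher and 2.21% lower), and 9 genes an adjusted one. With voom and surrogate variables 6 members and 1997 of 14533 genes reached an unadjusted p of 0.05 (7.43% higher and 6.31% lower), and 4 genes an adjusted one. In that fit the log2 fold change was -0.13 for Acta2, -0.08 for Cnn1 and -0.27 for Tagln, and the members' median was -0.29. With voom without surrogate variables it was -0.43 for Acta2, -0.39 for Cnn1 and -0.41 for Tpm2, and the median was -0.42. The number of genes at an adjusted p of at most 0.05 was 10 with DESeq2's Wald test, 1 with upper-quartile scaling, 1 with voom without surrogate variables and, by edgeR, 0 with CPM above 1 in all samples. In the last of these fits 806 of 12494 genes reached an unadjusted p of 0.05. The cause of these changes was not tested. Whether the replicate numbers mark a shared preparation is not given in the sources used here. Same-numbered libraries came from different mice and had deviation correlations of 0.0824, 0.155 and 0.143. Each of the 6 correlated best with its own number, so a pairing is neither shown nor excluded. With the replicate number as a block, 3 members (Myl9, Cnn2 and Tpm1) and 1188 genes reached an unadjusted p of 0.05 and 1 gene an adjusted one. Of all genes, 4.97% were higher and 3.21% lower at that unadjusted p.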
